A study of Homo sapiens with 6 samples.

Results

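The nuclear genes for the subunits of the mitochondrial respiratory chain were followed across TCam-2 cells that overexpress RBMXL3 and their 2 kinds of control cell. Genes were chosen by symbol only: those starting with NDUFA, NDUFB, NDUFC, NDUFS, NDUFV, UQCR, COX4, COX5, COX6, COX7, COX8 or ATP5, and SDHA, SDHB, SDHC, SDHD and CYC1. Of 62700 gene identifiers, 286 matched. From these, 14 assembly factor symbols (NDUFAF), 174 symbols ending in P and digits and 2 read-through genes were dropped, which left 96. They comprised 89 subunit genes, 6 antisense or divergent RNA genes named after a subunit, and the pseudogene COX8BP. The 89 subunit genes were 37 of complex I, 4 of complex II, 10 of complex III, 19 of complex IV (with NDUFA4 and NDUFA4L2) and 19 of complex V.

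The respiratory chain sits in the inner mitochondrial membrane. Complex I takes electrons from NADH and complex II from succinate, both pass them to ubiquinone, complex III hands them to cytochrome c, and complex IV gives them to oxygen. Complexes I, III and IV pump protons, and complex V, the ATP synthase, uses the returning protons to make ATP. A small set of core subunits is encoded in mitochondrial DNA, while all of complex II and most subunits of the other complexes are made from nuclear genes and imported. In many tissues these nuclear genes are transcribed with the help of NRF1 and of GABP, a factor of the ETS family.

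TCam-2 is a human testicular cancer cell line of seminoma type. Polyadenylated RNA was sequenced from 3 groups of 2 libraries: untransduced cells (WT), cells carrying GFP fused to FLAG after transduction (GFP) and cells carrying RBMXL3 fused to FLAG in the same way (RBMXL3), which encodes a relative of the RNA-binding protein RBMX. All groups share the parental line, so a difference between RBMXL3 and GFP compares 2 transduced populations, and a difference from WT also includes transduction and the tag. The labels name neither the vector and its promoter nor any clone, and they do not say whether replicates came from separate cultures, so p-values measure the spread between these libraries, which may be technical.

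The libraries held between 17685680 (RBMXL3 replicate 1) and 29318007 reads (WT replicate 1). RBMXL3 itself had 0 reads in all 4 controls and 84 and 68 reads in the RBMXL3 libraries. All 12 seminoma markers examined, among them POU5F1, SOX17, TFAP2C and KIT, were at 1 TPM or more in every library. PTPRC, CD3E, CD68 and HBA1, which define blood cells, had at most 3 reads in any library. The 6 fibroblast markers summed to between 177 and 220 TPM, with COL1A1, COL1A2, COL3A1 and LUM above 1 TPM in all libraries and DCN at no more than 3 reads. Of 5 fibroblast markers tested, 2 were higher in RBMXL3 than in GFP (10.5% of all genes) and 4 than in WT (14.6% of all genes). In GFP, 4 were higher than in WT (1.76% of all genes). By TPM, 2 of 4 were higher in RBMXL3 than in GFP (5.45% of all genes) and 2 than in WT (6.97% of all genes). The 7 Sertoli and Leydig cell markers summed to between 26.9 and 40.04 TPM, highest in the RBMXL3 libraries. AMH, GATA4, SOX9 and CYP11A1 stood at 1 TPM or more in every library, and STAR and HSD3B2 at no more than 3 reads. Of 4 tested, 1 was higher in RBMXL3 than in GFP (10.5% of all genes) and 2 than in WT (14.6% of all genes). The part of either list in the results was not tested. In bulk RNA, fewer cells with a transcript and less of it per cell cannot be told apart. The labels give no batch, so a difference in handling between groups cannot be told apart from the group.

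The regions upstream of subunit genes are shown first because NRF1 and ETS sites are the textbook link between these genes. RefSeq promoter windows (GRCh38.p14, 250 bases before to 50 after the start) were matched for 71 of the 89 genes, 70 by symbol and 1 by an older symbol, with the first listed window taken for each gene. In 10 of the 71 the window's start lay more than 1000 bases from the gene's start in GENCODE 29. The NRF1 motif (GCGCA, any base, then GCGC) was found on either strand in 17 of 71 windows (23.9%), against 6.28% of all 27305 windows. The ETS core CCGGAAG was found in 20 windows (28.2%, against 10.7%), the GC box GGGCGG in 42 (59.2%, against 44.6%) and the TATA box TATAAA in 7 (9.86%, against 12.0%). Windows were searched on both strands, and no motif contains another. Among the 13 genes lower than both controls, 10 had a window, of which 4 held the NRF1 motif (NDUFA12, ATP5F1C, UQCR10 and UQCRFS1) and 2 the ETS core (NDUFS1 and SDHB). Of the 3 genes higher than both controls, SDHD had both motifs, NDUFB5 had no window, and the window of NDUFA5, which lay 43396 bases from its GENCODE 29 start, is not described. A match is a string in this window and not a measured binding site. The part of these motifs in the differences was not tested. Windows were printed only for genes that hold an NRF1 motif or ETS core, taken by size of change. NDUFB3 and ATP5PB changed more than UQCR10 but held neither, so they are not printed. The windows of 3 lower genes and of SDHD follow, 5′ to 3′ on the gene's strand, with NRF1 motifs in capitals and, in SDHD, also the ETS core, which lies on the other strand and so reads CTTCCGG.
NDUFA12, chr12:95003648-95003947, minus strand: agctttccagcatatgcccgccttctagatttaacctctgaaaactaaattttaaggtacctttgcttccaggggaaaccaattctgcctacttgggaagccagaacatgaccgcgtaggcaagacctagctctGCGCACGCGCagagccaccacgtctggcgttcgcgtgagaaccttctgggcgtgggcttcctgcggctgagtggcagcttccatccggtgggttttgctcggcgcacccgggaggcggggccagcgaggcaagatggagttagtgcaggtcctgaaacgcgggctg
ATP5F1C, chr10:7787927-7788226, plus strand: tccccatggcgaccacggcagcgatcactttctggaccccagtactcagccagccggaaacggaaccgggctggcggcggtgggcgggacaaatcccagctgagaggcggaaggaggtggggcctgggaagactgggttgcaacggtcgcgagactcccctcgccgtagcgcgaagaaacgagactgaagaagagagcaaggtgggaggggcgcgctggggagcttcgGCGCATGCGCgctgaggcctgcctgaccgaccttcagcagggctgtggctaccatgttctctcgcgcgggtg
UQCR10, chr22:29767119-29767418, plus strand: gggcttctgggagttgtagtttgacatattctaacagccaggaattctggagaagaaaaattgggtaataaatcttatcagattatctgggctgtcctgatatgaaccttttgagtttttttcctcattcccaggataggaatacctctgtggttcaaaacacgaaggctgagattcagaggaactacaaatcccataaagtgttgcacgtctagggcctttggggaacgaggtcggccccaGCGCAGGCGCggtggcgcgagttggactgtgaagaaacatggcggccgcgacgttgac
SDHD, chr11:112086623-112086922, plus strand: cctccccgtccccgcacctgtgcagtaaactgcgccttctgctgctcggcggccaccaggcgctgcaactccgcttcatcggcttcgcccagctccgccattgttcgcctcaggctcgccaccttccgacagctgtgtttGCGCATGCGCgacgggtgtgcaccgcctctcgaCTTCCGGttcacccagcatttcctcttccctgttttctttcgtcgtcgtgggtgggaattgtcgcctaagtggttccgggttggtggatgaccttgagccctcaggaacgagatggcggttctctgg
The NRF1 motif lies at position -116 from the start in NDUFA12, -22 in ATP5F1C, -8 in UQCR10 and -110 in SDHD, whose ETS core lies at -77. The printed genes were chosen for holding a motif, so its presence in both lower and higher genes among them is not a result.

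The subunit genes together took 0.893% and 1.03% of all reads in the WT, 1.14% and 1.14% in the GFP and 0.935% and 0.911% in the RBMXL3 libraries. Both GFP libraries lay above the other 4, and the RBMXL3 libraries lay between the WT libraries. Against the 4 controls combined, an exact permutation test of the RBMXL3 share gave a two-sided p of 0.4. With 15 arrangements that exact test cannot go below p = 0.0667, and an exact test of 2 against 2 libraries cannot go below p = 0.333, so neither can reach 0.05. Complex V had the largest share, with 0.373% and 0.424% of reads in the WT, 0.460% and 0.454% in the GFP and 0.357% and 0.351% in the RBMXL3 libraries, where the RBMXL3 libraries were the lowest of the 6. The share of complex I was 0.226% and 0.265% in the WT, 0.293% and 0.295% in the GFP and 0.257% and 0.251% in the RBMXL3 libraries. In TPM, which is scaled for transcript length, the members held 2.41% and 2.704% in the WT, 2.79% and 2.86% in the GFP and 2.59% and 2.57% in the RBMXL3 libraries (exact permutation p = 0.533 against the 4 controls, with the same smallest p). Mitochondrial DNA transcripts took 3.02% and 2.33% of the reads in the WT, 1.31% and 2.77% in the GFP and 2.42% and 2.02% in the RBMXL3 libraries. They did not follow the order of the subunit genes. Cytosolic ribosomal protein genes took between 5.21% (WT replicate 1) and 7.30% (GFP replicate 2). Like the subunit genes, they were highest in both GFP libraries and lowest in WT replicate 1.

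**Figure D1:**
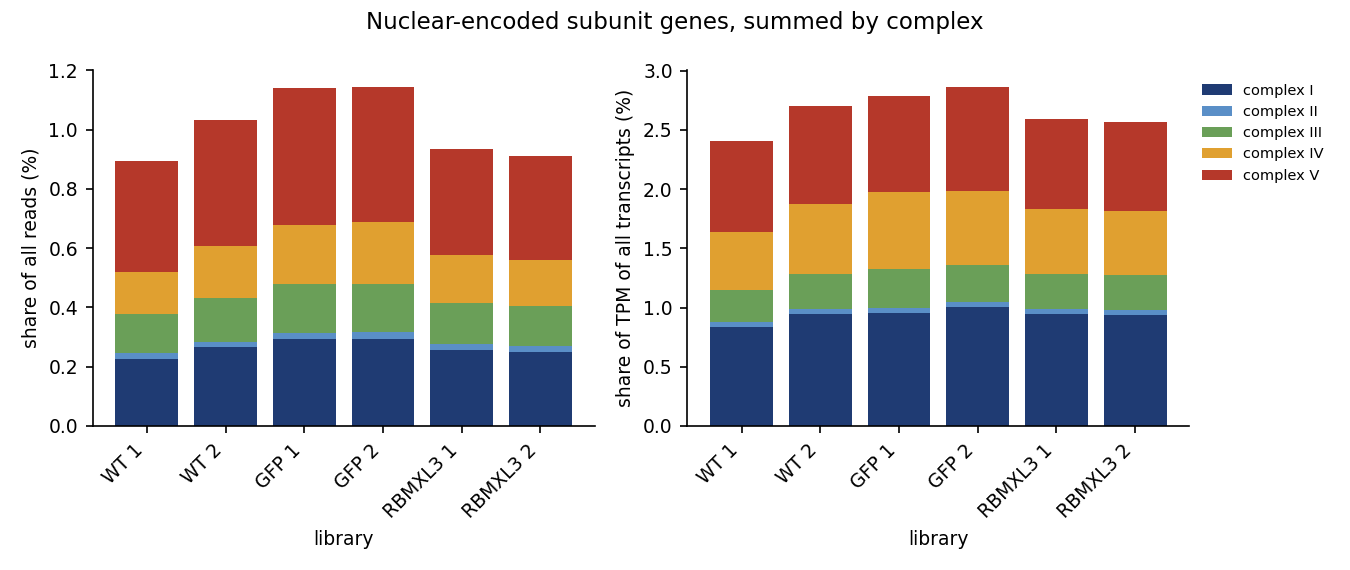
Stacked bars give the percentage of all reads (left) and of the TPM of all transcripts (right) in subunit genes of complexes I to V, for each of the 6 libraries. The total rises from 0.893% of reads in WT replicate 1 to 1.14% in both GFP libraries and is 0.935% and 0.911% in the RBMXL3 libraries.

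Levels differed widely between subunits. The most abundant members per length, as mean summed TPM over the 6 libraries, were UQCRH, the hinge protein of complex III, COX7C of complex IV, ATP5F1B, the catalytic beta subunit of ATP synthase, NDUFS5 of complex I and SDHC, a membrane anchor of complex II. In normalised read counts (reads divided by a size factor for each library), UQCRH had 5618 and 7089.9 in the WT, 8499 and 8559.5 in the GFP and 7520.2 and 7018 in the RBMXL3 libraries. COX7C had 4839 and 6179.7 in the WT, 7191 and 7781 in the GFP and 5678 and 5294 in the RBMXL3 libraries. For both genes WT replicate 1 was the lowest library and the GFP libraries were the highest. SDHC, at 2725 and 2571 in the WT, 2358 and 3071 in the GFP and 2713 and 2528 in the RBMXL3 libraries, showed no such order and was not called in any comparison. Among tissue-restricted isoforms, COX7A1, the heart and muscle form of subunit 7A, was the one measured well enough to test. COX4I2, COX6A2, COX6B2, COX7B2, COX8C and NDUFA4L2 had normalised counts of at most 6.44 in any library. ATP5MGL had 0 reads, and NDUFA7 and NDUFA13 stayed under the filter, at no more than 25.2. The 6 antisense or divergent RNA genes had normalised counts of at most 32.2, and COX8BP had 0 reads.

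Differences were tested with limma on log2(value + 1) over all 14292 genes that passed a minimum of 1 in at least 2 libraries on a scale like that of CPM, with calls made where the p-value, adjusted by Benjamini and Hochberg's method, was under 0.05. Of the 89 subunit genes, 80 were tested. Between RBMXL3 and GFP, 43 of the 80 were lower, where 10.4% of all genes were called lower, and 3 were higher, where 10.5% of all genes were called higher. The remaining 34 were not called. The median difference was -0.37 on the log2 scale over the subunit genes and 0.00 over all genes, and 70 of 80 differences were negative. Between RBMXL3 and WT, 13 were lower (background 15.3%) and 9 higher (background 14.6%), with a median of -0.05 against -0.01 over all genes. Between the controls, 5 were higher in GFP (background 1.76%) and 0 lower (background 1.91%), with a median of 0.26 against -0.01, and 75 of 80 differences were positive. At an unadjusted limma p under 0.05, 43 of the 80 subunit genes differed between the controls, where 22.3% of all genes did. The 3 comparisons share libraries: GFP enters both comparisons with its name, and so do RBMXL3 and WT. Against both controls in the same direction, 13 were lower (background 6.86%) and 3 higher (background 6.88%), and all 13 called lower than WT were also called lower than GFP.

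These counts rested on few libraries, as fits that left out 1 library at a time showed. Of the 43 genes lower than GFP, the count became 19 without RBMXL3 replicate 1, 12 without RBMXL3 replicate 2 and 11 with no filter on low genes. The 13 lower than WT became 5 without WT replicate 2, 25 without either GFP library, 4 and 3 without RBMXL3 replicate 1 and 2, and 6 with no filter. The 9 higher than WT became 2 without WT replicate 1, 4 and 3 without RBMXL3 replicate 1 and 2, and 1 with no filter. The 13 lower than both controls became 5 without WT replicate 2, 24 and 22 without GFP replicate 1 and 2, 4 and 3 without RBMXL3 replicate 1 and 2, and 5 with no filter. The 3 higher than GFP became 5 without GFP replicate 2, and the 3 higher than both became 5 without GFP replicate 2 and 1 with no filter. The median against GFP moved little, from -0.39 to -0.36 over the fits that each left out 1 library, whereas the median against WT moved from -0.18 without WT replicate 1 to 0.03 without WT replicate 2.

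WT replicate 1 differed from WT replicate 2 for these genes. It was the lowest of the 6 libraries in 33 of 80 subunit genes and lay below WT replicate 2 in 69. The share of all genes with either order was not computed, so these counts have no background. The median log2 difference between WT replicate 1 and WT replicate 2 was -0.22 over the subunit genes and 0.02 over all genes. The corresponding differences between replicates were -0.01 in GFP and 0.06 in RBMXL3. Between GFP and WT the median was 0.18 without WT replicate 1 and 0.37 without WT replicate 2. Both RBMXL3 libraries lay below all 4 controls in 33 of 80 subunit genes, where 23.6% of all genes did, and above all 4 in 9, where 22.5% did. Both lay below both GFP libraries in 58 (all genes 30.9%), and both GFP libraries lay above both WT libraries in 51 (all genes 24.4%).

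The complexes differed in how many of their genes were lower than in GFP. In complex I, 13 of 35 tested genes were lower and 2 higher, with a median of -0.20. In complex II, 1 of 4 was lower and 1 higher (median -0.17). Complex III had 6 of 10 lower (median -0.43), complex IV 11 of 13 (median -0.47) and complex V 12 of 18 (median -0.46), with 0 higher in each. Over all genes, 10.4% were called lower and 10.5% higher than GFP, and 15.3% lower and 14.6% higher than WT. Against WT the split was 5 lower and 7 higher in complex I (median 0.05), 1 and 1 in complex II (0.17), 3 and 0 in complex III (-0.11), 1 and 1 in complex IV (-0.07), and 3 and 0 in complex V (-0.19). The medians of GFP against WT were 0.26, 0.16, 0.26, 0.37 and 0.21 in the same order. Differences between complexes were not tested.

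**Figure D2:**
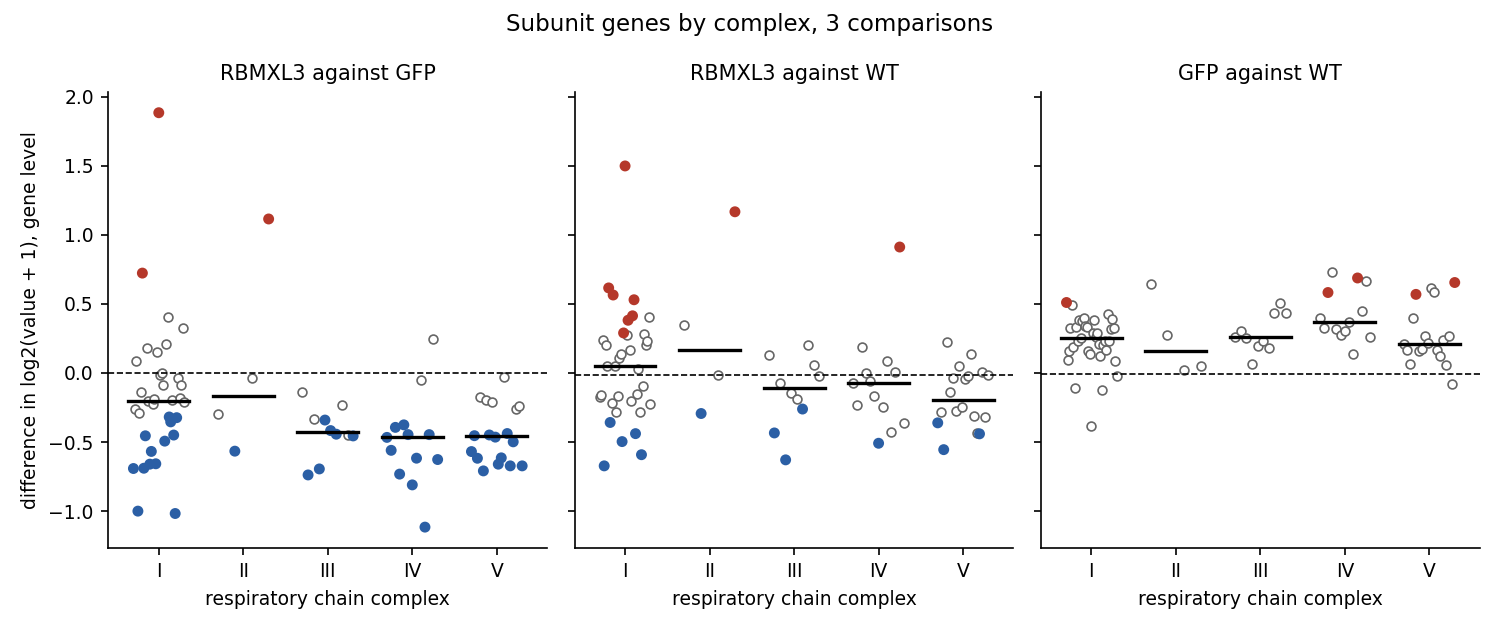
Each point is 1 tested subunit gene, with its difference in log2(value + 1) on the vertical axis and its complex on the horizontal axis, for 3 comparisons. Filled points passed an adjusted p of 0.05 (red higher, blue lower), thick lines are medians and the dashed line is the median of all 14292 genes. Medians lie between -0.47 and -0.17 for RBMXL3 against GFP and between 0.16 and 0.37 for GFP against WT.

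Within complex I, the subunits lower than both controls were NDUFA12, NDUFS5, NDUFB3, NDUFA6 and NDUFS1. NDUFA12 (ENSG00000184752.14; chromosome 12, 94897055 to 95003770, minus strand, GENCODE 29), an accessory subunit of the peripheral arm, had normalised counts of 1432 and 1540.3 in the WT, 2013 and 1738 in the GFP and 948 and 898 in the RBMXL3 libraries. The RBMXL3 libraries lay below all controls without overlap, and the log2 difference was -1.001 (SE 0.11, limma adjusted p 0.000197) against GFP and -0.67 (SE 0.11, limma adjusted p 0.000827) against WT. NDUFS5 (ENSG00000168653.11; chromosome 1, 39026318 to 39034636, plus strand), an accessory subunit on the intermembrane side, had 4431 and 5536 in the WT, 7634 and 5814 in the GFP and 3449 and 3115 in the RBMXL3 libraries. It was the most abundant complex I member, and its groups did not overlap. Its differences were -1.02 (SE 0.14, limma adjusted p 0.000701) and -0.59 (SE 0.14, limma adjusted p 0.00743), and the call against WT ended at limma adjusted p-values of 0.0961 without WT replicate 2 and 0.0762 without RBMXL3 replicate 2.

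NDUFB3 (ENSG00000119013.10; chromosome 2, 201071433 to 201085750, plus strand), of the membrane arm, which overlaps a gene of the other strand over part of its exons, had 1236 and 1599 in the WT, 1405 and 1765 in the GFP and 994 and 985 in the RBMXL3 libraries, with differences of -0.66 (limma adjusted p 0.00592) and -0.50 (limma adjusted p 0.0162). NDUFA6, an accessory subunit of the LYR family, had 1198 and 1266 in the WT, 1581 and 1531 in the GFP and 964 and 946 in the RBMXL3 libraries, with differences of -0.69 (limma adjusted p 0.000865) and -0.36 (limma adjusted p 0.016). NDUFS1, a core subunit that carries iron-sulfur clusters in the NADH-oxidising module, had 3099 and 3171 in the WT, 2915 and 2848 in the GFP and 2338 and 2273 in the RBMXL3 libraries, with differences of -0.32 (limma adjusted p 0.0276) and -0.44 (limma adjusted p 0.00396). In all 3 genes both RBMXL3 libraries lay below every control. Limma adjusted p-values against WT rose above 0.05 in each: for NDUFB3 to 0.17 without WT replicate 2, 0.0777 without RBMXL3 replicate 1 and 0.0933 without RBMXL3 replicate 2, for NDUFA6 to 0.0625 without WT replicate 1, 0.0903 without WT replicate 2, 0.133 without RBMXL3 replicate 1 and 0.173 without RBMXL3 replicate 2, and for NDUFS1 to 0.0589 without RBMXL3 replicate 1 and 0.0901 without RBMXL3 replicate 2. For NDUFS1 the call against GFP also ended (0.209 without RBMXL3 replicate 1 and 0.286 without RBMXL3 replicate 2, as limma adjusted p).

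The complex I genes higher than both controls were NDUFB5 and NDUFA5. NDUFB5 (ENSG00000136521.13; chromosome 3, 179604690 to 179627647, plus strand), of the membrane arm, had normalised counts of 171 and 224 in the WT, 79.5 and 250.04 in the GFP and 642 and 556 in the RBMXL3 libraries. The RBMXL3 libraries lay above all controls, and the mean was 3.64 times that of GFP and 3.03 times that of WT. On the log2(value + 1) scale the differences were 1.89 (SE 0.31, limma adjusted p 0.00204) and 1.4999 (SE 0.31, limma adjusted p 0.00411). GFP replicate 1 was the lowest library, and the difference from GFP was 1.18 with that library left out and 2.59 with GFP replicate 2 left out. The call against WT ended without WT replicate 1 (limma adjusted p 0.0843), and it was not made by DESeq2 (adjusted p 0.0534). NDUFA5 (ENSG00000128609.16; chromosome 7, 123536997 to 123558255, minus strand), of the peripheral arm, had 843 and 708 in the WT, 609.9 and 839 in the GFP and 1123 and 1277 in the RBMXL3 libraries, with means 1.66 times GFP and 1.55 times WT. Its differences were 0.72 (SE 0.15, limma adjusted p 0.00536) and 0.62 (SE 0.15, limma adjusted p 0.00807), and limma adjusted p-values rose to 0.0602 without RBMXL3 replicate 2 against GFP, and to 0.0928 without WT replicate 2 and 0.0837 without RBMXL3 replicate 2 against WT. NDUFA5 has 12 pseudogene symbols in the table, so reads may be split between copies. For both genes the rise was absent from the summed TPM, as described with that measure.

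A further 5 complex I genes were called higher than WT alone: NDUFA9, NDUFB4, NDUFB7, NDUFC1 and NDUFC2. Their log2 differences from WT ran from 0.29 in NDUFB4 to 0.56 in NDUFA9. None of the 5 was called against GFP, where NDUFC2 differed most, by 0.41 (limma adjusted p 0.11). Each of the 5 calls ended without WT replicate 1 and without either RBMXL3 library, and the call of NDUFB4 also ended without WT replicate 2, with limma adjusted p-values between 0.0807 and 0.316. NDUFV2, a core subunit of the NADH-oxidising module, lay above all controls in both RBMXL3 libraries but was low, at 27.9 and 29.4 in the WT, 35.1 and 28.6 in the GFP and 42.5 and 49.2 in the RBMXL3 libraries, and was not called.

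In complex II the iron-sulfur subunit and a membrane anchor went opposite ways. SDHD (ENSG00000204370.13; chromosome 11, 112086773 to 112120013, plus strand), the anchor, had 257 and 309.6 in the WT, 239 and 359 in the GFP and 725 and 608 in the RBMXL3 libraries. The RBMXL3 libraries were well above all 4 controls, with means 2.23 times GFP and 2.35 times WT. The differences were 1.12 (SE 0.17, limma adjusted p 0.00139) and 1.17 (SE 0.17, limma adjusted p 0.000544). SDHB, which passes electrons towards ubiquinone, had 1607 and 1601 in the WT, 1977 and 1909 in the GFP and 1357 and 1253 in the RBMXL3 libraries, and its RBMXL3 libraries were the lowest of the 6. Its differences were -0.57 (limma adjusted p 0.00224) and -0.29 (limma adjusted p 0.0366). The limma adjusted p of SDHB rose to 0.0656 without RBMXL3 replicate 2 against GFP, and against WT to 0.147 without WT replicate 1, 0.115 without WT replicate 2, 0.15 without RBMXL3 replicate 1 and 0.354 without RBMXL3 replicate 2. The call of SDHB against WT also ended under quantile normalisation (limma adjusted p 0.0719) and in DESeq2 (adjusted p 0.0653). SDHA, the flavoprotein, was at 56.7 and 112 in the WT, 182 and 106 in the GFP and 106 and 112 in the RBMXL3 libraries, overlapped between groups and was not called.

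In complex III, UQCRB, UQCR10 and UQCRFS1 were lower than both controls. UQCRB (ENSG00000156467.10; chromosome 8, 96225920 to 96235634, minus strand), an accessory subunit next to cytochrome b, had 9060.2 and 8126 in the WT, 8390.5 and 9615 in the GFP and 5595 and 5483 in the RBMXL3 libraries. The controls differed by 0.07 on the log2 scale (limma adjusted p 0.748), and the RBMXL3 libraries lay below all 4. The differences were -0.70 (SE 0.11, limma adjusted p 0.00125) and -0.63 (SE 0.11, limma adjusted p 0.00114). UQCR10 (ENSG00000184076.13; chromosome 22, 29767369 to 29770413, plus strand), a small subunit whose promoter window is printed above, had 1046 and 1253 in the WT, 1638 and 1230.1 in the GFP and 866 and 817 in the RBMXL3 libraries, with differences of -0.74 (SE 0.14, limma adjusted p 0.0033) and -0.43 (SE 0.14, limma adjusted p 0.0307). UQCRFS1, the Rieske iron-sulfur protein, had 2776 and 2868 in the WT, 3176 and 3234 in the GFP and 2297 and 2405 in the RBMXL3 libraries, with differences of -0.44 (limma adjusted p 0.00615) and -0.26 (limma adjusted p 0.0484). Both showed RBMXL3 libraries below all controls, but their calls were less stable. Limma adjusted p-values against WT rose for UQCR10 to 0.0642 without WT replicate 1, 0.227 without WT replicate 2, 0.0965 without RBMXL3 replicate 1 and 0.178 without RBMXL3 replicate 2, and for UQCRFS1 to 0.135 without WT replicate 1, 0.167 without WT replicate 2, 0.354 without RBMXL3 replicate 1 and 0.237 without RBMXL3 replicate 2. The call of UQCRFS1 against WT held under 3 of 14 alternatives. It also ended under quantile normalisation, where the difference was -0.17 (limma adjusted p 0.177), under TMM (limma adjusted p 0.0518), with a pseudocount of 0.1 (limma adjusted p 0.0501), in edgeR (adjusted p 0.059) and in DESeq2 (adjusted p 0.0843). Against GFP the limma adjusted p of UQCRFS1 rose to 0.123 without RBMXL3 replicate 1 and 0.082 without RBMXL3 replicate 2. UQCRHL, a near-identical copy of UQCRH without introns, had between 353 and 667 normalised counts and at most 0.0449 TPM in any library, so reads of the pair may be split.

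In complex IV, 11 of 13 tested genes were lower than GFP (background 10.4%) and 1 was lower than WT (background 15.3%). Of the ubiquitous subunits that have a tissue-restricted counterpart, 6 of 7 were lower than GFP (background 10.4%, median -0.62). By TPM, 0 of the 7 were lower than GFP (background 1.47%), with a median of -0.14 where that of all genes was 0.13. By counts, 0 of the 7 were lower than WT (background 15.3%, median -0.07). COX7B had 1891 and 2889 in the WT, 4169 and 3429.5 in the GFP and 1936 and 1547 in the RBMXL3 libraries, a difference of -1.12 (limma adjusted p 0.00141) from GFP and of -0.43 (limma adjusted p 0.0778) from WT. RBMXL3 replicate 1 lay between the WT libraries, and both RBMXL3 libraries lay well below GFP. COX4I1, the ubiquitous form of a regulatory subunit, had 6131 and 6801 in the WT, 9112 and 7925 in the GFP and 6336 and 5956 in the RBMXL3 libraries, which gave -0.47 (limma adjusted p 0.00976) and -0.07 (limma adjusted p 0.639). The WT and RBMXL3 libraries of COX4I1 overlapped and both GFP libraries were higher. NDUFA4, once assigned to complex I, had 5601 and 6491 in the WT, 6321 and 8307 in the GFP and 5201 and 4217 in the RBMXL3 libraries, which gave -0.63 (limma adjusted p 0.00907) and -0.36 (limma adjusted p 0.0681). The calls against GFP ended for COX4I1 without RBMXL3 replicate 1 or 2 (limma adjusted p 0.0743 and 0.155) and for NDUFA4 without RBMXL3 replicate 2 (0.136).

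The other ubiquitous forms lower than GFP were COX6A1, COX6B1 and COX7A2. COX6A1 had 511 and 1025 in the WT, 1377 and 1082 in the GFP and 782 and 673 in the RBMXL3 libraries, with a difference of -0.73 (limma adjusted p 0.0398) from GFP. COX6B1 had 2573 and 3104 in the WT, 3739 and 3338 in the GFP and 2880.1 and 2563 in the RBMXL3 libraries, with -0.38 (limma adjusted p 0.0353). COX7A2 had 1727 and 2235 in the WT, 2223 and 2905 in the GFP and 1706 and 1593 in the RBMXL3 libraries, with -0.62 (limma adjusted p 0.00995). In all 3 genes both RBMXL3 libraries lay below both GFP libraries, and WT replicate 1 lay below the RBMXL3 pair in COX6A1, within it in COX6B1 and just above it in COX7A2. The calls ended at limma adjusted p-values for COX6A1 of 0.152 without GFP replicate 1, 0.0575 without RBMXL3 replicate 1 and 0.165 without RBMXL3 replicate 2, for COX6B1 of 0.0751 without GFP replicate 1, 0.107 without RBMXL3 replicate 1 and 0.332 without RBMXL3 replicate 2, and for COX7A2 of 0.0818 without RBMXL3 replicate 2. That of COX6A1 was also not made by edgeR (adjusted p 0.0505) or DESeq2 (adjusted p 0.236), nor with a mean of at least 5 required (limma adjusted p 0.0526). That of COX6B1 ended under quantile normalisation (limma adjusted p 0.0676).

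COX8A was the one complex IV gene higher than WT. It had 327 and 667 in the WT, 889.9 and 643 in the GFP and 910.3 and 895 in the RBMXL3 libraries, a difference of 0.91 (limma adjusted p 0.0129) from WT and of 0.25 (limma adjusted p 0.493) from GFP. WT replicate 1 was lowest by far, and without it the difference was 0.42 (limma adjusted p 0.158). DESeq2 did not make this call (adjusted p 0.137). The tissue-restricted COX7A1 (ENSG00000161281.11; chromosome 19, 36150922 to 36152869, minus strand) was the complex IV gene lower than both controls. It had 66.0 and 99.0 in the WT, 111 and 101 in the GFP and 47.6 and 52.4 in the RBMXL3 libraries, with differences of -0.81 (SE 0.18, limma adjusted p 0.00781) and -0.51 (SE 0.18, limma adjusted p 0.0456). At this low level the call against WT was not kept by the count models on recovered reads (adjusted p 0.0575 in edgeR and 0.105 in DESeq2). Limma adjusted p-values rose to 0.0605 without RBMXL3 replicate 1 against GFP, and to 0.31 without WT replicate 2, 0.208 without RBMXL3 replicate 1 and 0.14 without RBMXL3 replicate 2 against WT.

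In ATP synthase the genes lower than both controls were ATP5F1C, ATP5PB and ATP5F1A. ATP5F1C (ENSG00000165629.20; chromosome 10, 7788129 to 7807815, plus strand), the gamma subunit of the rotating central stalk, had 5304 and 5357 in the WT, 5269.9 and 5881 in the GFP and 3623 and 3617 in the RBMXL3 libraries. The RBMXL3 libraries were close to each other and lay below all controls, and the controls did not separate. The differences were -0.62 (SE 0.10, limma adjusted p 0.00146) and -0.56 (SE 0.10, limma adjusted p 0.00138). ATP5PB (ENSG00000116459.11; chromosome 1, 111448864 to 111462773, plus strand), subunit b of the peripheral stalk, had 6945 and 6518 in the WT, 6611 and 7422 in the GFP and 5151 and 4758 in the RBMXL3 libraries, with differences of -0.50 (SE 0.10, limma adjusted p 0.00553) and -0.44 (SE 0.10, limma adjusted p 0.0069). ATP5F1A, the alpha subunit of the catalytic head, had 24883 and 27560.3 in the WT, 31846 and 28738 in the GFP and 20753 and 20017 in the RBMXL3 libraries, with differences of -0.57 (limma adjusted p 0.00487) and -0.36 (limma adjusted p 0.0303). The RBMXL3 libraries of both genes lay below all controls. ATP5F1B, its catalytic partner, had 26381 and 27984 in the WT, 32154 and 29035 in the GFP and 22236 and 22355 in the RBMXL3 libraries and was lower than GFP, -0.45 (limma adjusted p 0.0138), with a value of -0.29 (limma adjusted p 0.0695) against WT.

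Calls of ATP5PB, ATP5F1A and ATP5F1B ended when libraries were left out. Limma adjusted p-values of ATP5PB rose to 0.126 without RBMXL3 replicate 2 against GFP, and to 0.0765 without WT replicate 1, 0.0516 without RBMXL3 replicate 1 and 0.139 without RBMXL3 replicate 2 against WT. Those of ATP5F1A rose to 0.0631 without RBMXL3 replicate 1 and 0.0987 without RBMXL3 replicate 2 against GFP, and to 0.0676 without WT replicate 1, 0.155 without WT replicate 2, 0.179 without RBMXL3 replicate 1 and 0.261 without RBMXL3 replicate 2 against WT. Those of ATP5F1B rose to 0.157 without RBMXL3 replicate 1 and 0.164 without RBMXL3 replicate 2 against GFP. Under quantile normalisation the limma adjusted p of ATP5F1A was 0.0607 against GFP and 0.189 against WT, and that of ATP5F1B against GFP was 0.251. Of the 16 genes called against both controls, ATP5F1C, NDUFA12, UQCRB and SDHD kept both calls under all 28 alternative values computed for each (14 a comparison).

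**Figure D3:**
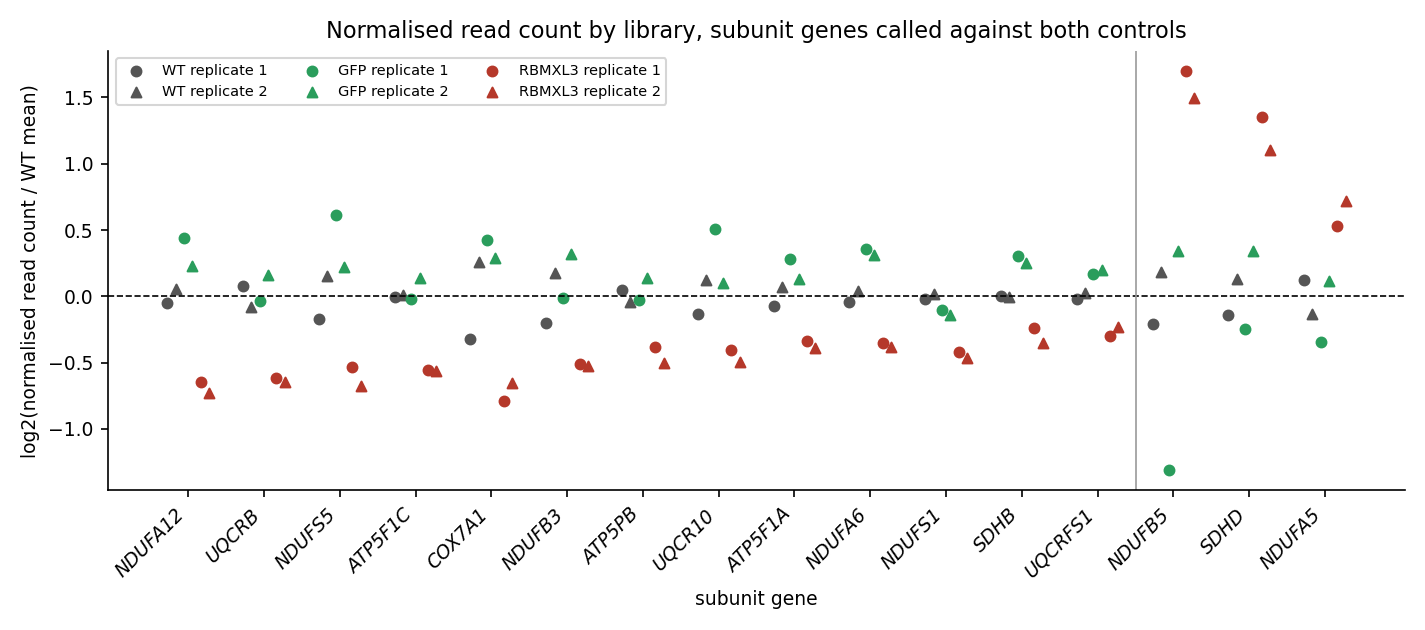
For the 13 subunit genes lower and the 3 higher than both controls, points give log2 of the normalised read count over the WT mean in each of the 6 libraries (circles replicate 1, triangles replicate 2). RBMXL3 points (red) lie below all control points in each of the 13 genes to the left of the line and above them in the 3 to its right, and GFP replicate 1 is the low point of NDUFB5.

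The comparison of GFP with WT asks what transduction with the tagged control protein does. The 5 genes higher in GFP were COX7B, ATP5PO, COX5B, ATP5F1E and NDUFA1. COX7B differed by 0.69 (limma adjusted p 0.048), as the values above show. ATP5PO, which joins the stalk to the catalytic head, had 519 and 779 in the WT, 991 and 1043 in the GFP and 664 and 595 in the RBMXL3 libraries, and differed by 0.66 (limma adjusted p 0.0418). COX5B had 1886 and 2469.9 in the WT, 3324 and 3169 in the GFP and 2426 and 2503 in the RBMXL3 libraries, and differed by 0.58 (limma adjusted p 0.0267). In each gene both GFP libraries lay above both WT libraries and WT replicate 1 was the lowest of the WT pair. ATP5F1E, the epsilon subunit, had 3736 and 5469.9 in the WT, 7081 and 6379 in the GFP and 4205 and 4000.4 in the RBMXL3 libraries, and differed by 0.57 (limma adjusted p 0.0496). NDUFA1 had 1648 and 2183 in the WT, 2753 and 2693 in the GFP and 1718 and 1636 in the RBMXL3 libraries, and differed by 0.52 (limma adjusted p 0.0418). The comparison of RBMXL3 with GFP shares the GFP libraries with this one, so its calls for these genes are not set against it. All 5 calls between the controls ended without WT replicate 1, where differences were 0.30 to 0.39, and without WT replicate 2, where they were 0.72 to 0.99 (limma adjusted p 0.0505 to 0.0783). The count of 5 became 0 without either WT library, 14 and 33 without GFP replicate 1 and 2, 2 and 3 without RBMXL3 replicate 1 and 2, 0 with no filter, 3 under TMM or a pseudocount of 0.1, 2 under quantile normalisation or with a mean of at least 5, 2 in edgeR and 11 in DESeq2. ATP5PO overlaps another gene on its strand over 19.6% of its exons, and NDUFA1 and ATP5F1E overlap genes of the other strand over 44.5% and 23.2%, so these counts are uncertain.

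Subunit genes are short, with a median transcript length of 795 bases weighted by TPM, against 2362 over all genes. Across genes, which are not independent replicates, Spearman's correlation between length and log2 difference was 0.16 in the 80 members and 0.15 in 13961 genes for RBMXL3 against GFP. It was 0.01 and -0.12 for RBMXL3 against WT, and -0.34 and -0.38 for GFP against WT. Between WT replicate 1 and 2 it was 0.36 in the members and 0.04 in all genes. Short genes thus tended to be higher in GFP than in WT across all genes, and the part of length in the subunit results was not tested. Cytosolic ribosomal protein genes, which are also short, showed 37 of 82 lower than GFP (background 10.4%, median -0.34). Against WT, 5 were lower (background 15.3%) and 10 higher (background 14.6%), with a median of 0.07. Between the controls, 25 were higher in GFP (background 1.76%), with a median of 0.39. Their median against GFP was -0.16 under quantile normalisation and did not change sign under TMM, edgeR or DESeq2. Mitochondrial ribosomal protein genes had 23 of 76 lower than GFP (background 10.4%, median -0.20) and 3 higher (background 10.5%). Against WT, 9 were lower (background 15.3%) and 7 higher (background 14.6%), with a median of -0.04.

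In summed TPM, where salmon assigned reads to transcripts, the same comparisons gave fewer calls. Of 81 subunit genes tested, 1 was higher than GFP (background 5.45%) and 3 were lower (background 1.47%). Against WT, 3 were higher (background 6.97%) and 2 lower (background 4.53%), and between the controls 0 were called in limma (background 0.0%), with 6 of 81 at an unadjusted limma p under 0.05, where 15.5% of all genes were. The median against GFP was -0.08 when that of all genes was 0.13, and against WT 0.01 when that of all genes was 0.03. Of the 43 genes lower than GFP at gene level, 39 were negative in TPM, 41 relative to the median of all genes, and 3 were called. Among those with the opposite sign, NDUFS6 was at -0.32 (limma adjusted p 0.0291) by counts and 0.02 (limma adjusted p 0.902) by TPM. COX7A2 was at -0.62 (limma adjusted p 0.00995) and 0.13 (limma adjusted p 0.808), and ATP5MF at -0.61 (limma adjusted p 0.0447) and 0.05 (limma adjusted p 0.82). None of these was called in TPM. Their gene-level calls ended in other settings: that of NDUFS6 without RBMXL3 replicate 1 or 2 (limma adjusted p 0.281 and 0.209) and under quantile normalisation (0.0512), and that of ATP5MF under 8 of 14 alternatives. Without GFP replicate 1 the difference of ATP5MF was -0.37 (limma adjusted p 0.215), and without RBMXL3 replicate 1 or 2 its limma adjusted p was 0.0751 and 0.212. Of the 9 genes higher than WT at gene level, 8 had the same sign in TPM, and NDUFA9 was at -0.04 (limma adjusted p 0.801). By complex, the TPM medians against GFP were 0.02, 0.03, -0.17, -0.19 and -0.17 for complexes I to V. Both GFP libraries lay above both WT libraries in 21 of 81 subunit genes by TPM, where 12.9% of all genes did. WT replicate 1 was the lowest library in 37, a share that was not computed over all genes.

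NDUFA12 and UQCRB were lower than both controls in TPM too (background 1.13% of all genes). NDUFA12 had TPM values of 211 and 222 in the WT, 269 and 228 in the GFP and 158 and 157 in the RBMXL3 libraries, with log2(TPM + 1) differences of -0.65 (limma adjusted p 0.0251) and -0.46 (limma adjusted p 0.0381). UQCRB had TPM values of 837 and 742 in the WT, 823 and 779 in the GFP and 523 and 539 in the RBMXL3 libraries, with differences of -0.59 (limma adjusted p 0.0267) and -0.57 (limma adjusted p 0.0207). In both genes the RBMXL3 libraries lay below every control library. NDUFS5 was lower than GFP only, at TPM values of 758 and 900.0 in the WT, 1041 and 880.1 in the GFP and 648 and 608 in the RBMXL3 libraries, with -0.61 (limma adjusted p 0.0422) and -0.40 (limma adjusted p 0.0891). With RBMXL3 replicate 1 or replicate 2 left out, 0 subunit genes were called in TPM in any comparison, higher or lower, with the RBMXL3 group then resting on 1 library. The 3 lower than GFP became 1 and 7 without GFP replicate 1 and 2. The 3 higher than WT became 0 without either WT library and 6 without either GFP library, and the 2 lower than WT became 0 and 1 without WT replicate 1 and 2 and 4 without either GFP library.

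NDUFC2 was the subunit gene higher than both controls in TPM (background 3.46%), and it falls outside the rule for named genes, so it was chosen after its values were seen. It (ENSG00000151366.13; chromosome 11, 78068304 to 78080219, minus strand) had TPM values of 168 and 171 in the WT, 112 and 188 in the GFP and 319 and 317 in the RBMXL3 libraries, means 2.12 times GFP and 1.88 times WT, and differences of 1.13 (limma adjusted p 0.0355) and 0.90 (limma adjusted p 0.0452). Its gene-level counts were 141 and 191 in the WT, 155 and 212 in the GFP and 260.1 and 237 in the RBMXL3 libraries, a smaller difference in the same direction. The read-through gene NDUFC2-KCTD14 covers 16.3% of its exons on the same strand. The TPM calls ended at limma adjusted p-values of 0.0662 without WT replicate 1, 0.064 without WT replicate 2, 0.186 without RBMXL3 replicate 1 and 0.205 without RBMXL3 replicate 2 against GFP, and of 0.186 without WT replicate 1, 0.13 without WT replicate 2, 0.191 without RBMXL3 replicate 1 and 0.19 without RBMXL3 replicate 2 against WT. COX7A2L, which helps build supercomplexes, and ATP5IF1, the inhibitor of ATP synthase, were higher than WT in TPM, by 0.46 (limma adjusted p 0.0373) and 0.49 (limma adjusted p 0.0308). Both of these calls also ended without either WT or either RBMXL3 library.

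**Figure D4:**
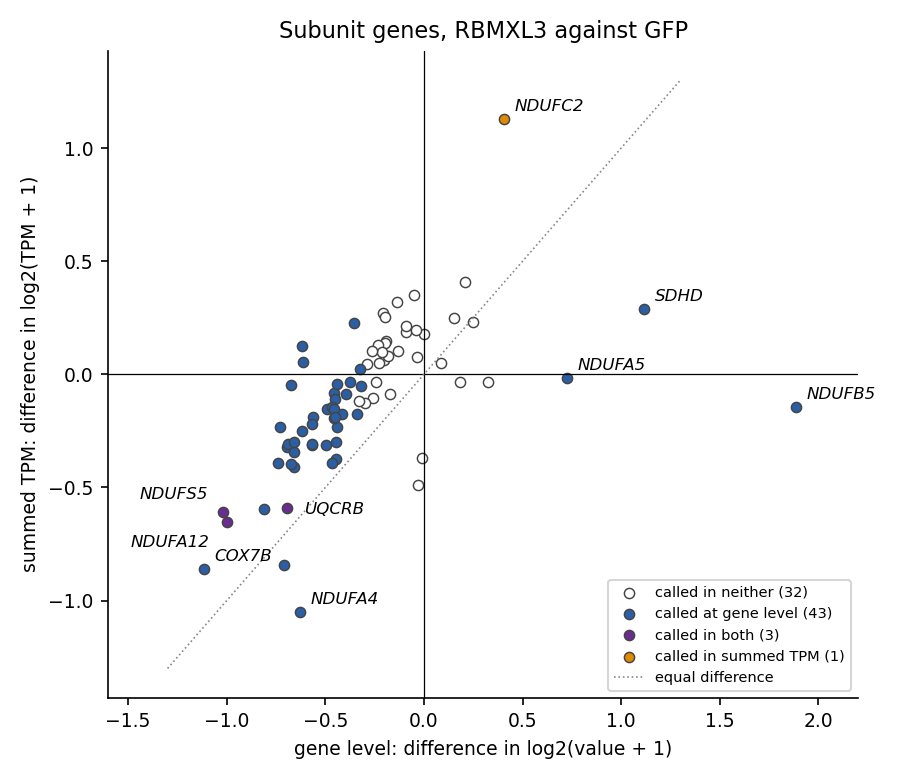
Each point is 1 subunit gene measured at both levels, with the RBMXL3 minus GFP difference in log2(value + 1) at gene level on the horizontal axis and in log2(TPM + 1) on the vertical axis. Most points lie to the left of 0 and above the dotted line of equal difference, and NDUFB5, at 1.89 by counts, lies at -0.14 by TPM.

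The genes called higher by counts behaved differently in TPM. NDUFB5 had TPM values of 139 and 171 in the WT, 170.4 and 178 in the GFP and 163 and 153 in the RBMXL3 libraries and differences of -0.14 (limma adjusted p 0.459) and 0.03 (limma adjusted p 0.896). NDUFA5 had TPM values of 65.5 and 59.7 in the WT, 67.4 and 63.8 in the GFP and 60.0 and 70.1 in the RBMXL3 libraries and differences of -0.02 (limma adjusted p 0.941) and 0.05 (limma adjusted p 0.785). In both genes the groups overlapped. SDHD had TPM values of 45.4 and 49.7 in the WT, 49.4 and 52.2 in the GFP and 64.7 and 59.8 in the RBMXL3 libraries and differences of 0.29 (limma adjusted p 0.117) and 0.38 (limma adjusted p 0.0533), the same direction but not called. When gene counts were turned into a TPM scale with the salmon transcript lengths, a gene's value from counts was at the median 84.5% of its salmon value over 81 members. For NDUFB5 it was 12.0%, 8.25% and 38.2% in the WT, GFP and RBMXL3 cells, for SDHD 31.5%, 28.99% and 60.5%, and for NDUFA5 78.1%, 64.9% and 125%. In these 3 genes the value from counts was thus a larger part of the salmon value in RBMXL3 cells than in either control.

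Counts of 16 members came to under 25% of their salmon TPM: NDUFA7, NDUFA9, NDUFA11, NDUFA13, NDUFB5, NDUFB8, NDUFC2, NDUFV2, SDHA, SDHC, UQCR11, COX6A1, COX8A, ATP5MF, ATP5MG and ATP5PO. In GENCODE 29, 13 of the 16 overlap another gene on the same strand, and NDUFB5, SDHA and SDHC do not. COX7A2 was over 200%, and only its transcripts listed in GENCODE 29 were summed. The 57 members whose 2 values lay within a factor of 2 are a group chosen after its values were seen. By counts, 34 of them were lower (background 10.4%) and 1 higher (background 10.5%) than GFP. Their median against GFP was -0.44 by counts and -0.14 by TPM, where all genes were at 0.00 and 0.13. Against WT, 12 of the 57 were lower (background 15.3%) and 4 higher (background 14.6%) by counts. The medians against WT were -0.17 by counts and -0.04 by TPM, where all genes were at -0.01 and 0.03.

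Transcript usage, the share of a gene's TPM that each transcript holds, was tested with limma's diffSplice in 72 members with at least 2 expressed transcripts. Of these, 5 were called between RBMXL3 and GFP (ATP5F1B, COX6C, COX7A2L, NDUFA5 and UQCRB), where 12.0% of 8882 genes were called. Between RBMXL3 and WT, 9 were called (the same 5 and ATP5IF1, ATP5MC1, ATP5MG and SDHC), also with a background of 12.0%, and between the controls 0 (background 1.72%). A test of the shares themselves called COX6C alone, with limma adjusted p-values of 0.0122 against GFP and 0.0109 against WT. The 5 called against GFP became 13 without GFP replicate 2 and 2 without either RBMXL3 library. The 9 called against WT became 3 without WT replicate 1, and 3 and 2 without RBMXL3 replicate 1 and 2.

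COX6C (ENSG00000164919.11; chromosome 8, 99873200 to 99894062, minus strand), a small subunit of complex IV with 17 pseudogene symbols in the table, had the largest change among the members. Of the gene's TPM, transcript COX6C-206 held 93.3% and 91.6% in the WT, 93.4% and 92.4% in the GFP and 28.6% and 32.5% in the RBMXL3 libraries. The smaller of its differences from the control means was -61.9 percentage points. COX6C-207 held 0% and 0% in the WT, 0% and 0% in the GFP and 59.3% and 54.5% in the RBMXL3 libraries. Every control library is listed at 0 for COX6C-207 and both RBMXL3 libraries were above 50%, so RBMXL3 does not overlap the controls. COX6C-201 held 4.38% and 1.41% in the WT, 4.10% and 4.25% in the GFP and 8.30% and 8.29% in the RBMXL3 libraries. In GENCODE 29 both COX6C-206 and COX6C-207 are annotated as targets of nonsense-mediated decay and have 5 exons on chromosome 8. They share 3 identical exons, their first exons differ by 1 base at the 5′ end, and their last exons lie at 99874996 to 99875092 (COX6C-206, 97 bases) and 99873200 to 99873293 (COX6C-207, 94 bases). The whole gene was lower than GFP at gene level, -0.45 (limma adjusted p 0.0108), a call that ended without RBMXL3 replicate 1 or 2 (limma adjusted p 0.124 and 0.109), and was not called in TPM, -0.30 (limma adjusted p 0.101). The annotation used for counting may differ, and junction reads were not analysed here.

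For COX7A2L, COX7A2L-201 held 84.5% and 73.2% in the WT, 81.2% and 79.0% in the GFP and 47.5% and 43.4% in the RBMXL3 libraries, and COX7A2L-208, annotated as a processed transcript without a coding frame, held 11.4% and 24.9% in the WT, 16.4% and 18.1% in the GFP and 50.8% and 54.8% in the RBMXL3 libraries. The RBMXL3 libraries lay outside the range of the controls for both. The pair differ in their first exon, at 42361090 to 42361216 in COX7A2L-201 and at 42388445 to 42388507 in COX7A2L-208 (chromosome 2, minus strand), and share the middle exon. In NDUFA5, NDUFA5-206 held 29.5% and 37.6% in the WT, 46.2% and 25.8% in the GFP and 0% and 0% in the RBMXL3 libraries, and NDUFA5-202 held 0% and 0% in the WT, 0% and 15.5% in the GFP and 33.2% and 30.4% in the RBMXL3 libraries. NDUFA5-206 is listed at 0 in both RBMXL3 libraries and in no control. NDUFA5-211, which had the largest mean share, held 56.1% and 53.5% in the WT, 46.0% and 49.2% in the GFP and 59.4% and 61.5% in the RBMXL3 libraries.

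Other large changes of share were seen in NDUFA4 and ATP5MG. NDUFA4-204, a retained intron transcript, held 28.0% and 45.7% in the WT, 49.0% and 37.4% in the GFP and 7.97% and 6.74% in the RBMXL3 libraries, with the smaller difference from the control means at -29.5 percentage points, though NDUFA4 was not called for usage. ATP5MG-204 held 0% and 9.62% in the WT, 1.95% and 11.2% in the GFP and 29.1% and 39.1% in the RBMXL3 libraries, with the smaller difference at 27.5 points, and was listed at 0 in WT replicate 1. Over all members, protein-coding transcripts held between 88.4% and 90.6% of the TPM in each library, nonsense-mediated decay targets between 4.25% and 5.22%, and retained introns between 1.86% and 3.98%.

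**Figure D5:**
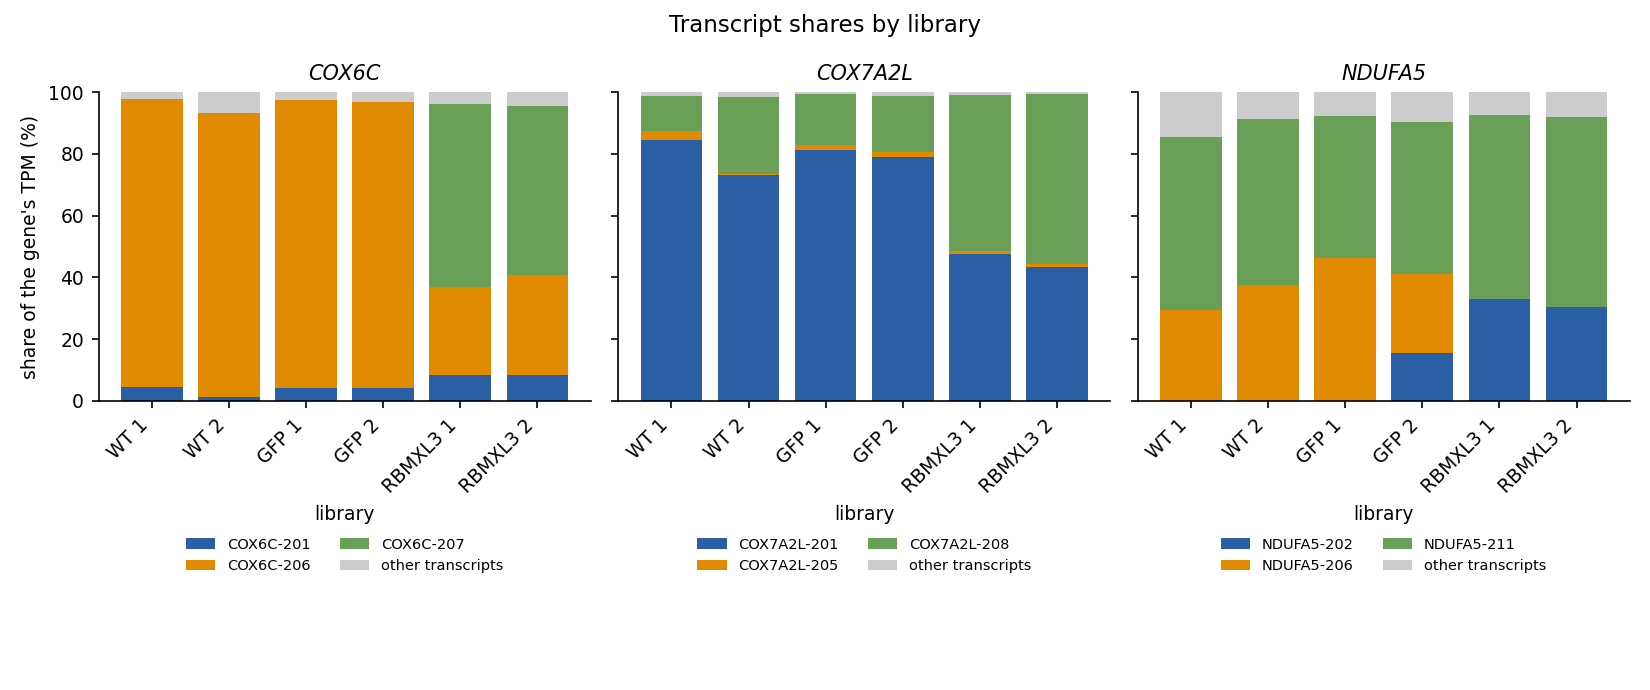
Stacked bars give the share of the TPM of COX6C, COX7A2L and NDUFA5 held by their 3 leading transcripts in each of the 6 libraries, with the remaining transcripts in grey. COX6C-207 is at 0% in the 4 controls and at 59.3% and 54.5% in the RBMXL3 libraries.

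Genes that work with the subunits were counted over lists chosen by function. Of 55 assembly factors tested, 4 were higher than GFP (background 10.5%) and 6 lower (background 10.4%), with a median of -0.08. Against WT 9 were higher (background 14.6%) and 4 lower (background 15.3%), with a median of 0.04. Of the 4 called higher than GFP, only ECSIT and COX11 are described here, and the 6 called lower are not. ECSIT, which assembles complex I, was higher than both controls. It had 391 and 472 in the WT, 455 and 468 in the GFP and 624 and 649 in the RBMXL3 libraries. Its differences were 0.44 (limma adjusted p 0.0224) and 0.54 (limma adjusted p 0.00605). COX11, which delivers copper to complex IV, was at 997 and 1158 in the WT, 1027 and 1181 in the GFP and 1658 and 1537 in the RBMXL3 libraries, with differences of 0.53 (limma adjusted p 0.00744) and 0.56 (limma adjusted p 0.0034). Both had RBMXL3 libraries above all controls by counts, and in TPM COX11 differed by -0.09 (limma adjusted p 0.62) from GFP. The calls of both genes against GFP ended without either RBMXL3 library (limma adjusted p 0.0521 to 0.197). Against WT limma adjusted p-values rose for ECSIT to 0.0801 without WT replicate 1 and 0.0744 without RBMXL3 replicate 2, and for COX11 to 0.0607 without WT replicate 1 and 0.0558 without RBMXL3 replicate 1.

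Of the 13 subunits encoded in mitochondrial DNA, MT-ATP8 was higher (background 10.5%) and MT-ND4L lower (background 10.4%) than GFP. Their median as a list was 0.05, but -0.02 under DESeq2 and edgeR and 0.29 under quantile normalisation. MT-ATP8 and MT-ND4L overlap their neighbours in the mitochondrial genome, so their counts are uncertain. Against WT, MT-ATP8 was higher (background 14.6%) and MT-ND4L and MT-CYB lower (background 15.3%). The median against WT was -0.39, and -0.22 under quantile normalisation. The call of MT-ATP8 against GFP was not made by DESeq2 (adjusted p 0.139) and ended without RBMXL3 replicate 1 (limma adjusted p 0.0626), and that of MT-ND4L ended without RBMXL3 replicate 2 (limma adjusted p 0.216) and under quantile normalisation (0.0581). Against WT, limma adjusted p-values rose for MT-ATP8 to 0.132 without WT replicate 1, 0.096 without WT replicate 2 and 0.0741 without RBMXL3 replicate 1, for MT-ND4L to 0.095 without WT replicate 2 and 0.117 without RBMXL3 replicate 2, and for MT-CYB to 0.204 without WT replicate 1, 0.058 without WT replicate 2 and 0.105 without RBMXL3 replicate 2. DESeq2 made neither the call of MT-ATP8 nor that of MT-CYB against WT (adjusted p 0.113 and 0.143), and under quantile normalisation that of MT-CYB ended too (limma adjusted p 0.0577). Mitochondrial transcripts carry short poly(A) tails, and the libraries were made from poly(A) RNA. Of 18 regulators, 3 were higher than WT (background 14.6%) and 2 lower (background 15.3%). Compared with GFP, 2 were higher (background 10.5%) and 1 lower (background 10.4%). Higher than GFP were TFAM, which packages and transcribes mitochondrial DNA, and GABPA, the DNA-binding part of GABP. Lower than GFP was TWNK, the mitochondrial helicase. The call of GABPA ended without GFP replicate 1 and without either RBMXL3 library (limma adjusted p 0.0628 to 0.189), and that of TWNK without either RBMXL3 library (0.0829 and 0.0861). TFAM had 1911 and 1845 in the WT, 1367 and 1893 in the GFP and 2608 and 2436 in the RBMXL3 libraries, with differences of 0.64 (limma adjusted p 0.00585) and 0.42 (limma adjusted p 0.0302), and in TPM of -0.02 (limma adjusted p 0.915) against GFP. NRF1 had 627 and 714 in the WT, 894 and 610.3 in the GFP and 756 and 687 in the RBMXL3 libraries and was not called, with -0.04 (limma adjusted p 0.893) and 0.10 (limma adjusted p 0.643). Its libraries overlapped in all 3 groups. The calls of TFAM ended without RBMXL3 replicate 1 against GFP (limma adjusted p 0.0559) and without any of the WT or RBMXL3 libraries against WT (0.101 to 0.183).

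The tricarboxylic acid cycle, which supplies NADH and succinate to the chain, had 3 of 13 genes lower than GFP (SUCLG1, FH and IDH3B; background 10.4%) and 5 lower than WT (background 15.3%), with 0 higher in either. Its median was -0.26 against GFP and -0.21 against WT, and under quantile normalisation -0.17 and -0.11. FH, which hydrates fumarate, the product of complex II, had 3872 and 4188 in the WT, 4593 and 4021 in the GFP and 2812 and 2741 in the RBMXL3 libraries, with differences of -0.63 (limma adjusted p 0.00176) and -0.53 (limma adjusted p 0.00233). SUCLG1, which makes succinate, had 2670.4 and 2799.6 in the WT, 3131 and 3377 in the GFP and 2048 and 1855 in the RBMXL3 libraries, with differences of -0.73 (limma adjusted p 0.000692) and -0.48 (limma adjusted p 0.00351). Both had RBMXL3 libraries below every control. In TPM, 0 of the 13 cycle genes were called against GFP (background 5.45% higher and 1.47% lower, median 0.01). In that measure 1 was lower than WT (background 4.53%, median -0.07), and FH differed by -0.39 (limma adjusted p 0.0854) from GFP. Of 13 genes for the mobile carriers ubiquinone and cytochrome c, 1 was higher than GFP (background 10.5%) and 2 lower (background 10.4%), with a median of -0.03. PDSS1, which makes the side chain of ubiquinone, was the largest fall, at 406 and 375 in the WT, 410.3 and 402 in the GFP and 219 and 223 in the RBMXL3 libraries, with differences of -0.81 (limma adjusted p 0.00116) and -0.76 (limma adjusted p 0.00086). It was also called in TPM, with -0.62 (limma adjusted p 0.0283) and -0.66 (limma adjusted p 0.0182). Of its TPM calls, that against GFP ended under 6 of 9 alternatives (limma adjusted p 0.053 to 0.203) and that against WT without either WT or either RBMXL3 library (0.067 to 0.137). FH and PDSS1 kept both gene-level calls under all 28 alternative values each, and SUCLG1 lost that against WT without RBMXL3 replicate 2 (limma adjusted p 0.0991).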

How the data were processed

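Per the labels' protocols, RNA of TCam-2 cells was column-purified, treated with DNase and made into stranded poly(A) libraries. The submitters' processing notes name Trim Galore 0.6.10, STAR 2.7.11a, DESeq2, Salmon 1.10.2 and GRCh38. The annotation and the strand setting of counting are not given in the sources used here. The deposited gene table holds a normalised signal: each of its 145320 nonzero values (100%, tolerance 0.001) was a whole number of reads divided by 1 size factor per library, so depth was recovered. Per the file's name, the authors deposited salmon TPM for 251955 transcripts. These were summed by GENCODE 29 gene, which 80.0% of transcripts had, carrying 94.7% to 95.1% of TPM. The number of table columns of no sample was 0.

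Gene values were divided by a common factor of 23.9, since the test had been planned for CPM, so the minimum and pseudocount refer to that scale. Genes with at least 1 in 2 libraries (14292, or 14296 by TPM) were tested on log2(value + 1) with limma 3.58.1 (R 4.3.3; intensity trend, all 6 libraries, no covariate, two-sided), with p-values adjusted over all genes. Log2 differences on this scale understate changes of low genes. Usage was tested with diffSplice on transcripts at 1 TPM or more in at least 2 libraries. Scripts were tested on simulated data. Alternatives were a pseudocount of 0.1, no filter, a mean of at least 5, TMM, quantile normalisation, edgeR 4.0.16 and DESeq2 1.42.0 on the recovered reads, a replicate block, a test of shares and leaving out each library. edgeR called 1425 genes higher and 1423 lower than GFP, 2098 and 2059 against WT, and 232 and 242 between the controls. A count of 0 allows up to 3 reads, which covers counting error only. Coordinates are GENCODE 29 (GRCh38) and promoters RefSeq GRCh38.p14.

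Named were members called against both controls (the 8 largest each way), the most abundant of each complex, members whose gene-level call and TPM differ in sign, the 4 largest differences between the controls, tissue isoforms and counterparts, the 5 largest changes in transcript share, members under the filter and RBMXL3. Genes named beyond this rule (NDUFA1, NDUFA6, NDUFB4, NDUFB7, NDUFC1, NDUFC2, NDUFS1, NDUFV2, SDHA, SDHB, UQCRFS1, ATP5F1A and those of the functional lists) were chosen after their values were seen. The members and lists were chosen with earlier results of these data known. Some values of single genes are not reported here.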

Additional observations from a re-analysis of the deposited data

How the results depend on the processing

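No called difference of a named gene changed sign under any alternative run. With no filter on low genes, subunit genes called were 11 lower than GFP, 6 lower and 1 higher than WT, 5 lower and 1 higher than both controls, and 0 higher in GFP than in WT. The 5 subunit genes higher in GFP than in WT became 3 with a pseudocount of 0.1, 2 with a mean of at least 5, 3 with TMM, 2 with quantile normalisation, 2 in edgeR and 11 in DESeq2. In TPM, the 3 lower than GFP became 5 with a mean of at least 5. The test of shares called 1 member against each control where diffSplice called 5 and 9. As a share of all reads, the members differed by -0.0402 percentage points (RBMXL3 from WT) and 0.178 (GFP from WT). As a share of TPM, these differences were 0.0229 and 0.270, so that of RBMXL3 from WT changed sign. As a share of TPM outside mitochondrial and ribosomal protein genes, the differences were -0.333 (RBMXL3 from GFP), 0.0949 (RBMXL3 from WT) and 0.428 (GFP from WT). The cause was not tested.

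Replicate numbers did not pair the libraries: deviations of same-numbered libraries correlated at -0.156 between WT and GFP, 0.0337 between WT and RBMXL3 and -0.0941 between GFP and RBMXL3. With the replicate block, 1 subunit gene was higher in GFP than in WT, and in TPM 0 were higher and 0 lower than GFP, 0 higher and 1 lower than WT, and 0 and 0 against both controls.

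When each library was left out in turn, subunit genes lower than GFP ranged from 12 to 47 and higher from 2 to 5. Those lower than WT ranged from 3 to 25 and higher from 2 to 11, and those lower than both from 3 to 24 and higher from 2 to 5. Between the controls they ranged from 0 to 33 higher and 0 to 2 lower. In TPM they ranged from 0 to 3 higher and 0 to 7 lower than GFP, 0 to 6 higher and 0 to 4 lower than WT, and 0 to 3 higher and 0 to 2 lower than both. Usage calls ranged from 2 to 13 against GFP, 2 to 12 against WT and 0 to 3 between the controls. With 1 library left in a group, limma assumes that it varies like the others. TPM keeps no depth, so no counting interval can be given for it.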
